A study of Mus musculus with 2 samples.

Results

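Translation initiation and elongation factors are the proteins that bring ribosomes to an mRNA, start them at the right codon and move them along it. The genes described here are those whose symbol in the deposited table begins with Eif1 to Eif6 or with Eef1 or Eef2. The rule gave 63 of the 14678 genes of the table, 56 with an Eif symbol and 7 with an Eef symbol. No measured value was used to choose them. Both libraries came from the uterus of mated mice at gestation day 2.5 (G2.5), dated by the vaginal plug, before the embryo implants. The paper reports lower ovulation and less frequent pregnancy in Dox- females. Whether each pooled female carried embryos is not stated. All females carried VEGFtetO/tetO, a VEGF gene with 4 tet operator copies in its promoter, and a beta-actin-driven tetR-Krab transgene (beta-AKtg/wt). Dox+ females stayed on chow with doxycycline at 200 mg/kg, which keeps the repressor off the promoter. Dox- littermates were taken off doxycycline at 3 to 4 weeks of age, so that tetR-Krab could bind and repress VEGF. Females of both groups were 9 to 10 weeks old and were mated with VEGFtetO/tetO males. The Dox+ group is the control, and it carries the same insertion and transgene. Doxycycline itself also differed between the groups, so that effects of the drug and of VEGF repression cannot be told apart here. The transgene is expressed throughout the body, so that repression was not limited to the uterus.

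RNA of 3 uteri per group was pooled and sequenced as 1 library per group by digital gene expression (DGE) tag profiling, in which each short tag is counted for the gene it matches. The count column and the TPM column together gave library totals of 5985925 clean tags in Dox+ and 5844314 in Dox-. TPM here is the number of tags per 1000000 clean tags of the library, with no correction for transcript length. Since the 3 uteri were pooled and each group has 1 library, no spread between animals can be given and no difference was checked against replicates. Every interval below is a 95% interval that covers counting error only, and tags from amplified libraries are not independent molecules. Vegfa, the repressed gene, had 247 tags in Dox+ and 125 in Dox-, a level 1.93 times lower (1.55 to 2.41).

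Marker genes of the uterus were checked first. Hoxa10 and Hoxa11, patterning genes of the uterine stroma, had 3120 and 2573 tags in Dox+ and 1060 and 785 in Dox-. All 5 stroma markers were lower in Dox-, with a summed level of 1618 TPM against 677 TPM, and 4 of them were called lower by the rule given below. The 5 smooth muscle markers were lower as well, 4972 against 3463 TPM in sum, with 2 called. The 5 epithelial markers were higher, 790 against 1046 TPM, with 1 called. Endothelial markers summed to 149 and 103 TPM, but of the 5 genes 3 were lower in Dox- and 2 higher. Of these 5, 3 were under the minimum count given below. Cdh5, with 446 and 216 tags, was called lower, and Pecam1, with 243 and 253, was not called. Leukocyte markers summed to 62.6 and 86.8 TPM, with 4 of 5 higher and 3 under the minimum count. The 3 red cell markers in the table, all under the minimum count, summed to 7.85 and 21.6 TPM. The 3 oviduct and ovary markers, 2 of them under it, summed to 23.6 and 36.4 TPM. None of 5 Y-linked markers was in the table. By the same rule 15.2% of all 6547 genes compared were called higher and 14.7% lower, and no marker set was tested against those shares. In whole tissue, fewer cells of a type and less RNA per cell cannot be told apart, and the part of these cell types in the values below was not tested.

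Initiation begins when eIF2, loaded with the initiator tRNA, joins the small ribosomal subunit together with eIF1, eIF1A, eIF3 and eIF5. The eIF4 group recognises the cap of the mRNA and unwinds its leader. After the start codon is found, eEF1A delivers each aminoacyl-tRNA, the eEF1B complex recharges eEF1A with GTP, and eEF2 moves the ribosome along. These steps are set by signals such as the mTORC1 kinase and the kinases of eIF2, and the early pregnant uterus is a tissue of rapid growth and secretion.

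All 63 genes had tags in both libraries, and 54 had at least 200 tags in the libraries together, the study's minimum for a comparison. A gene was called when its level differed at least 1.5-fold and the Audic-Claverie test on its tags, which compares these libraries and not the conditions, gave a Benjamini-Hochberg FDR below 0.05. By this rule 7 of the 54 factors were called higher in Dox- and 6 were called lower. Among all 6547 genes compared, 15.2% were called higher and 14.7% lower (29.9% in either direction), so that the counts of the factors stood near the background in both directions. The genes called higher were Eif4e2, Eif1a, Eif4g1, Eif3e, Eif2b1, Eif3k and Eif1ad. Those called lower were Eif3g, Eif3b, Eif3i, Eif3f, Eif2b3 and Eif4b. The median log2 ratio of the 54 factors, Dox- over Dox+, was 0.07, and the median of all genes compared was 0.03. None of these 13 calls was made once pools were taken to vary by 20% of their mean.

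**Figure D1:**
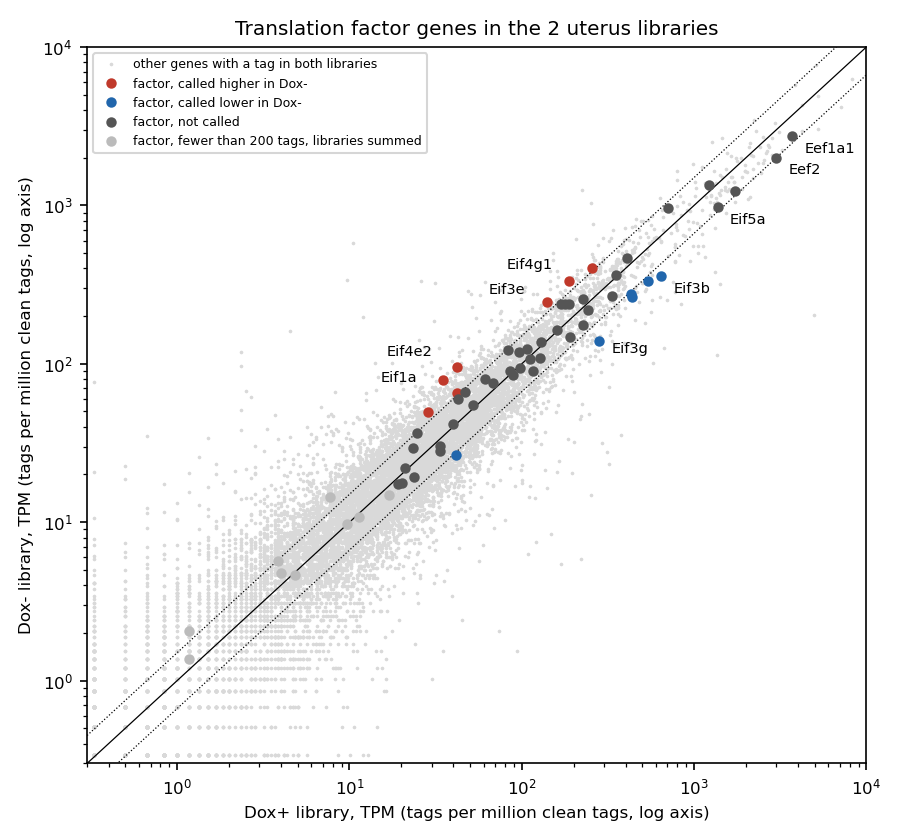
TPM of each gene in the Dox+ library (x axis) and in the Dox- library (y axis), both on log axes, with the 63 factor genes as large points over the other genes of the table. The solid line marks equal levels and the dotted lines a 1.5-fold difference. Eef1a1 and Eef2 lie below the line of equal levels at the upper end, and Eif4e2 and Eif1a lie above the upper dotted line.

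The summed level of the factors was lower in Dox- although the median gene was not. The 63 genes held 114465 tags in Dox+, 1.91% of the clean tags, and 95854 tags in Dox-, 1.64%. The log2 ratio of the sums was -0.22 (-0.23 to -0.21). Genes with an Eef symbol made up most of this difference. The 7 Eef genes held 0.988% of the clean tags in Dox+ and 0.759% in Dox-, and the 56 Eif genes 0.924% and 0.881%. The 5 genes with the most tags held 57.7% of all factor tags in Dox+ and 50.5% in Dox-.

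Promoter sequences of 4 called factors, both called higher and called lower, are shown first, because motifs known to be common in front of housekeeping genes can be read in them. Each line gives 120 bases before and 30 bases from the transcription start that RefSeq annotates on GRCm38.p6, 5′ to 3′ on the strand of the gene. Capitals mark CCGGAAG, the core of ETS factor sites, in Eif3g and Eif4e2, and CACGTG, the E-box bound by Myc and related factors, in Eif3f and Eif4g1. The windows are chr9:20898561-20898710 on the minus strand for Eif3g, and on the plus strand chr1:87213791-87213940 for Eif4e2, chr7:108934295-108934444 for Eif3f and chr16:20672607-20672756 for Eif4g1.
Eif3g: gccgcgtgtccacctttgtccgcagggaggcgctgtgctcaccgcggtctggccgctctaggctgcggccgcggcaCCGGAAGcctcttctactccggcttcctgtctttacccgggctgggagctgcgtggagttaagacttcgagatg
Eif4e2: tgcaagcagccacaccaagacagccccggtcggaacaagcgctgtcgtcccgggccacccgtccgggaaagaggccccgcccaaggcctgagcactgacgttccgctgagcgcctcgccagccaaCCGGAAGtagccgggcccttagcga
Eif3f: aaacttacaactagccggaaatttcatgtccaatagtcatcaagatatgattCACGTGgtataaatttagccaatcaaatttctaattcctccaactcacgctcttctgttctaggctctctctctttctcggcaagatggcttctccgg
Eif4g1: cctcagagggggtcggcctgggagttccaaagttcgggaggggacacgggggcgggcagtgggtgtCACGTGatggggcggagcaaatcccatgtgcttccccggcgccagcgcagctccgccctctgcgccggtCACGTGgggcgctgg

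The ETS core began 44 bases before the start in Eif3g, which was called lower, and at base 6 after it in Eif4e2, which was called higher. The E-box stood 68 bases before the start in Eif3f, called lower, and the printed window of Eif4g1, called higher, held it at 2 places. RefSeq windows of 300 bases, from 250 before to 50 after the start, could be matched to 50 of the 63 factors and to 11570 genes of the table. Searched on both strands, CCGGAAG was in a window of 18 of the 50 factors (36.0%) and of 17.9% of all matched genes. CACGTG was in 12 of the 50 (24.0%) and in 11.4% of all matched genes. Of the matched factors with a call, 2 of 5 called higher and 1 of 4 called lower held each of these motifs. TGATGNAA, read by Atf4 together with C/EBP proteins, was in 2 of the 50 windows, those of Eef2k and Eif2s3x, and in 2.73% of all. CACGTG reads the same on both strands, and its last 2 letters can be shared with TGATGNAA. A match describes letters and not a bound site.

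The scanning factors eIF1 and eIF1A hold the small subunit in the open state that searches for a start codon. Eif1a, an autosomal gene for eIF1A, had 209 tags in Dox+ and 461 in Dox-. It was called higher, 2.26-fold (1.91 to 2.67). Its X-linked counterpart Eif1ax had 961 and 958 tags, and its interval, 0.933 to 1.12, included no difference. The ratio of Eif1a exceeded that of Eif1ax by 1.15 on the log2 scale (0.88 to 1.41). Eif1 had 1006 and 1390 tags, a log2 ratio of 0.50 (0.38 to 0.62) that did not reach the fold required for a call. Eif1b, its close relative, had 535 and 500 tags. These pairs encode near-identical proteins and the study annotated unambiguous tags, so that the split of tags between such copies is uncertain. Differences between log2 ratios were computed for 13 pairs of factors, chosen after the values were seen, and describe these libraries.

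The 3 subunits of eIF2, which carries the initiator tRNA, were all a little higher in Dox- and none was called. Eif2s1, the alpha subunit whose phosphorylation slows initiation, had 772 and 805 tags. Eif2s2, the beta subunit, had 576 and 698 tags, and Eif2s3x, the X-linked gamma subunit, 1127 and 1401. Their log2 ratios were 0.09, 0.31 and 0.35, and the interval of Eif2s1 (-0.05 to 0.24) included 0.

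Subunits of eIF2B, the exchange factor that recharges eIF2 with GTP, went both ways. Eif2b1, a regulatory subunit, rose from 171 to 291 tags, 1.74-fold (1.44 to 2.12). Eif2b3, a subunit of the catalytic part, fell from 249 to 155 tags, to a level 1.57 times lower (1.28 to 1.93). The difference between these log2 ratios was 1.45 (1.05 to 1.85). Eif2b5, the catalytic subunit, had 148 and 215 tags, a log2 ratio of 0.57 (0.26 to 0.89) just short of a call. Eif2b2 had 115 and 102 tags, and Eif2b4, with 102 and 87, was under the minimum of 200.

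Each of the 4 kinases that phosphorylate eIF2 senses a different stress, and all were at low levels. Eif2ak2 (PKR, activated by double-stranded RNA) had 126 and 129 tags and Eif2ak4 (GCN2, activated by lack of amino acids) 120 and 104. Eif2ak1 (HRI, activated by lack of heme) had 68 and 63 tags. Eif2ak3 (PERK, activated by unfolded protein in the endoplasmic reticulum) had 46 tags in Dox+ and 84 in Dox-. Its ratio of 1.87 (1.29 to 2.74) lay outside counting error, but with fewer than 200 tags it was not compared. The other 3 kinases had intervals that included no difference.

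The rule also took in 4 Argonaute genes, which carried Eif2c symbols at the time although they encode the small-RNA binding proteins of RNA interference and are not initiation factors. Eif2c1 had 200 and 165 tags and was not called. Eif2c2, Eif2c3 and Eif2c4 had between 7 and 33 tags in either library, too few to compare.

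Among the 13 genes of eIF3, the scaffold that holds the other factors on the small subunit, 4 were called lower and 2 higher, and 10 had a lower level in Dox-. The calls are 30.8% and 15.4% of the 13, beside 14.7% called lower and 15.2% called higher among all genes compared. Of all 14678 genes of the table, 7126 had a lower level in Dox-. The median log2 ratio was -0.35, and the summed level went from 3571 to 2811 TPM. Eif3g was the factor that fell most. It had 1680 tags in Dox+ and 818 in Dox-, a level 2.01 times lower (1.84 to 2.18). Eif3b fell from 3828 to 2083 tags, to a level 1.79 times lower (1.70 to 1.89), and Eif3i from 2604 to 1552, 1.64 times lower (1.54 to 1.75). The products of Eif3b, Eif3g and Eif3i form a module of their own on the complex, with RNA-binding domains in b and g. This trio was picked out after its values were seen. Together the 3 genes went from 1355 to 762 TPM, and the other 10 from 2216 to 2049 TPM.

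Eif3f, a subunit of the octamer that forms the body of eIF3, fell from 3231 to 1959 tags, 1.61 times lower (1.52 to 1.70). Eif3e and Eif3k, also of the octamer, moved the other way. Eif3e rose from 841 to 1432 tags, 1.74-fold (1.60 to 1.90), and Eif3k from 1538 to 2340, 1.56-fold (1.46 to 1.66). The log2 ratio of Eif3g minus that of Eif3e was -1.81 (-1.98 to -1.63), so that genes of the same complex moved in opposite directions. The remaining octamer genes Eif3a, Eif3c, Eif3h, Eif3l and Eif3m had log2 ratios from -0.38 to -0.15, and none was called. Eif3d, which can bind the cap of some mRNAs, had 1133 and 868 tags. Eif3j, a loosely bound subunit, had 255 and 348 tags, a log2 ratio of 0.48.

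Levels of different genes were compared per kilobase, by the longest coding transcript in GENCODE, since it is not settled whether longer mRNAs gave more tags. On this scale Eif3i was highest of the eIF3 genes in Dox+, with 387 TPM per kb, and Eif3k in Dox-, with 440 TPM per kb. Eif3j was lowest in both, with 7.87 and 11.0 TPM per kb. Without the length correction Eif3b led in Dox+, with 639.5 TPM, and Eif3k in Dox-, with 400.4 TPM. Eif3i (129269204 to 129277892 on chromosome 4), Eif3b (140895259 to 140919314 on chromosome 5) and Eif3g (20698796 to 20703044 on chromosome 9) lie apart on NCBIM37, the assembly known as mm9. The 62 factors that could be placed there were spread over 19 chromosomes.

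**Figure D2:**
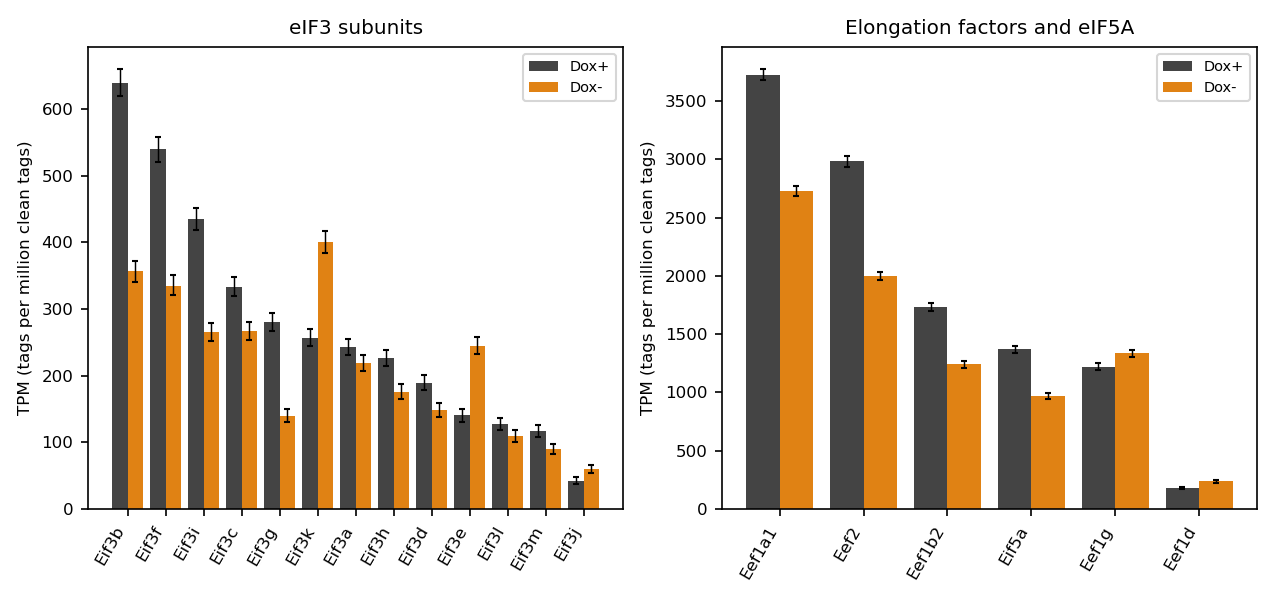
TPM of the 13 eIF3 genes (left) and of the 5 most abundant elongation genes with Eif5a (right) in the Dox+ library (dark bars) and the Dox- library (orange bars). Error bars are 95% Poisson intervals of the tag count. Eif3b, Eif3f, Eif3i and Eif3g are lower in Dox-, Eif3k and Eif3e are higher, and Eef1g does not share the lower level of Eef1a1, Eef2, Eef1b2 and Eif5a.

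The eIF4A helicases unwind the leader of the mRNA. Eif4a1, the main form, had 2094 and 2116 tags, and its ratio of 1.03 (0.974 to 1.10) included no difference. Eif4a2 had 1362 and 1496 tags. Eif4a3, which belongs to the exon junction complex and acts after splicing, had 500 and 715 tags, a log2 ratio of 0.55 (0.38 to 0.72) that did not reach a call. Cofactors of the helicase split. Eif4b fell from 2579 to 1619 tags, 1.56 times lower (1.46 to 1.66), while Eif4h had 2455 and 2710 tags. The log2 ratio of Eif4b minus that of Eif4h was -0.81 (-0.93 to -0.69).

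Cap-binding proteins differed among themselves. Eif4e, the cap-binding subunit of eIF4F, had 669 and 630 tags with an interval of 0.864 to 1.08. Eif4e2 (4EHP), which binds the cap without eIF4G and is known as a repressor of translation, rose from 252 to 561 tags. Its 2.28-fold rise (1.96 to 2.66) was the largest among the 54 factors compared, though the interval overlapped that of Eif1a. The log2 ratio of Eif4e2 exceeded that of Eif4e by 1.24 (0.98 to 1.51). Eif4e3 had 201 and 176 tags. Eif4e2 lies at 89110489 to 89137063 on chromosome 1 of NCBIM37. It is the gene whose promoter is printed above with CCGGAAG just after the start.

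The inhibitors that keep eIF4E from eIF4G differed by less than counting error. Eif4ebp1 had 583 and 550 tags, with a ratio of 0.966 (0.858 to 1.09), and Eif4ebp2 and Eif4ebp3 had 24 and 28 tags and 58 and 57 tags. Eif4g1, the main scaffold that joins the cap complex to eIF3, rose from 1126 to 1941 tags, 1.77-fold (1.64 to 1.90). It lies at 20668386 to 20692957 on chromosome 16 of NCBIM37, and its promoter window above holds CACGTG. Eif4g2, a relative that lacks the eIF4E site and serves cap-independent initiation, had 4210 and 5588 tags, a log2 ratio of 0.44 (0.39 to 0.50). Eif4g3 had 514 and 530 tags and did not share this, as the ratio of Eif4g1 exceeded it by 0.74 (0.54 to 0.95) on the log2 scale. The 3 scaffold genes together went from 977 to 1379 TPM.

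The factors that act when the subunits join were each somewhat higher and none was called. Eif5, the GTPase activator of eIF2, had 642 and 728 tags. Eif5b, the GTPase of subunit joining, had 282 and 385, and Eif6, which keeps free large subunits apart, 366 and 470. Their log2 ratios were 0.22, 0.48 and 0.40, with intervals that excluded 0. Of the genes that bear a factor symbol without a place in the canonical path, Eif1ad rose from 252 to 380 tags, 1.54-fold (1.31 to 1.82), the smallest rise that was called. Eif2a and Eif2d, which can deliver the initiator tRNA without eIF2, had 406 and 443 tags and 312 and 323 tags. Eif4enif1, which carries eIF4E into the nucleus, had 239 and 245 tags.

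**Figure D3:**
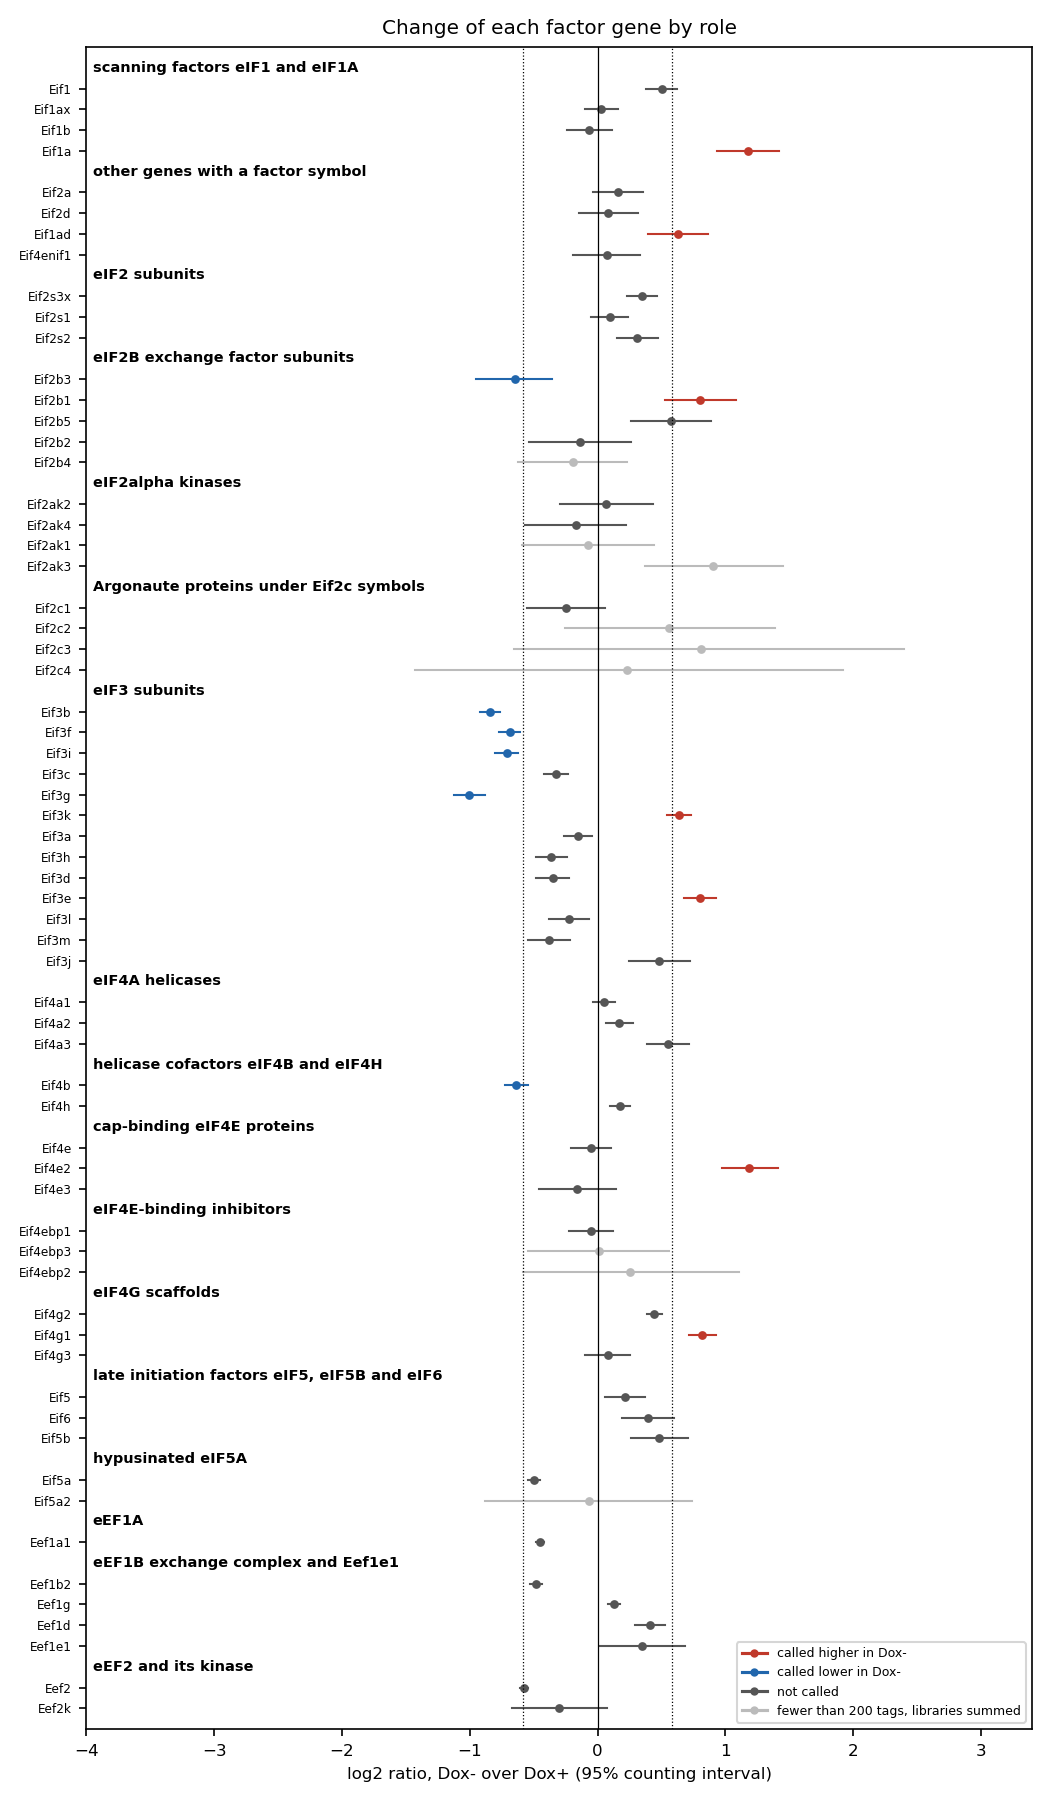
Log2 ratio, Dox- over Dox+, of the 63 factor genes, grouped by role, with 95% counting intervals. The dotted lines mark a 1.5-fold difference. Called genes, in red and blue, number 6 of 13 in eIF3 and 0 of 7 among the Eef genes, beside 29.9% of all genes compared, and these small groups were not tested against that share.

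None of the 7 Eef genes was called at the 1.5-fold limit, where 29.9% of all genes compared were called in either direction. Eef1a1, Eef2 and Eef1b2, the 3 with the most tags, were lower in Dox-, and of these Eef2 lay close under the limit. Eef1a1 had the most tags of all factors, 22294 in Dox+ and 15942 in Dox-, a level 1.37 times lower (1.34 to 1.39). Eef2 had 17844 and 11685 tags, 1.49 times lower (1.46 to 1.53), and was the factor closest to a call in that direction. With library sizes scaled by TMM or by the median ratio it was called lower. Eef2k, the kinase that phosphorylates and slows eEF2, had 141 and 112 tags with an interval of 0.629 to 1.05. Per kilobase Eef1a1 was highest of all factors in both libraries, with 2076 and 1521 TPM per kb, followed in Dox+ by Eef2 with 962.2 and in Dox- by Eef1g with 718 TPM per kb. Without the length correction Eef2 came next after Eef1a1 in both libraries, with 2981 and 1999 TPM, beside 1222 and 1338 TPM for Eef1g. On NCBIM37, Eef1a1 lies at 78326256 to 78336958 on chromosome 9 and Eef2 at 80639376 to 80645252 on chromosome 10.

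Within the exchange complex eEF1B the subunits differed. Eef1b2, the catalytic subunit, had 10366 tags in Dox+ and 7247 in Dox-, 1.40 times lower (1.35 to 1.44). Eef1g, the structural subunit, had 7313 and 7818 tags, and Eef1d, the other exchange subunit, 1072 and 1393. The log2 ratio of Eef1b2 minus that of Eef1g was -0.61 (-0.68 to -0.55), and minus that of Eef1d it was -0.89 (-1.02 to -0.77). Eef1e1, which belongs to the tRNA synthetase complex, had 139 and 173 tags. Eif5a, which helps the ribosome through stalling sequences and carries the amino acid hypusine, had 8196 and 5675 tags, 1.41 times lower (1.36 to 1.46). Eif5a2, its relative, had 29 and 27 tags. Eef1a1, Eif5a and other abundant factors have processed copies elsewhere in the genome, so that their counts are uncertain to the extent that tags matched both.

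The factors were also described by classes of their combined count. Of 9 factors with at least 5000 tags in the libraries together, 6 were lower in Dox- and the median log2 ratio was -0.48. The 216 genes of the table in that class had a median of -0.10, and 122 of them were lower in Dox-. Of 8 factors with at least 500 and fewer than 1000 tags, all were higher in Dox-, with a median of 0.48. The 1697 genes in that class had a median of 0.01, and 869 of them were higher. The classes between and below these did not continue this order. The 15 factors from 2000 to under 5000 tags had a median of 0.05, beside 0.06 for all genes of the class, and the 11 from 1000 to under 2000 tags a median of 0.03, beside 0.03. The 11 factors from 200 to under 500 tags had a median of -0.14, beside 0.03 for all genes, with 5 higher and 6 lower in Dox-. Among the 3252 genes of that class, 1708 were higher and 1543 lower. The log2 ratios of the factors therefore showed no steady order with abundance. Across the 54 factors the rank correlation of the combined count and the log2 ratio was -0.28, and across the 6547 genes it was -0.01. These are correlations across genes of the same pair of libraries, and genes are not independent replicates.

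Genes around the factors were followed with 10 lists of the pathway and with the ribosomal proteins, by counts and medians. The integrated stress response list holds the genes that act on or follow phosphorylated eIF2. Of its 15 genes, 10 had enough tags, and their median log2 ratio was 0.84. Of these 10, 6 (60%) were called higher and 1 (10%) lower, beside 15.2% and 14.7% of all genes compared. This list was written with earlier results of these data known, and it was not tested against those shares. Ppp1r15b, Gcn1l1 and Vldlr were compared and not called, with log2 ratios of 0.19, 0.04 and -0.47. Atf4, the transcription factor whose translation rises when eIF2 is phosphorylated, rose from 536 to 902 tags, 1.72-fold (1.55 to 1.92). Cebpb rose from 258 to 692 tags, 2.75-fold (2.38 to 3.18), Ddit3 (CHOP) from 108 to 258, 2.45-fold (1.95 to 3.09), and Atf5 from 596 to 1252, 2.15-fold (1.95 to 2.38). Asns, asparagine synthetase, rose from 282 to 513 tags, and Nupr1 from 80 to 146. Impact, an inhibitor of the kinase GCN2, fell from 203 to 89 tags, 2.23 times lower (1.73 to 2.89). Trib3, with 7 and 119 tags, and Chac1, with 4 and 23, were under the minimum, and their ratios of 17.4 (8.19 to 44.2) and 5.89 (2.01 to 23.4) rest on few tags. Ppp1r15a, the phosphatase subunit that reverses the phosphorylation, had 99 and 96 tags, also under the minimum. Atf3, with 5 and 8 tags and a ratio interval of 0.473 to 6.37, and Sesn2, with 5 and 0 tags, were under it too. Atf4, Asns, Nupr1, Trib3, Chac1, Ppp1r15a, Atf3, Sesn2, Ppp1r15b, Gcn1l1 and Vldlr were named after their values were seen. Cebpb and Ddit3 also respond to other signals, and the state of the eIF2 protein was not measured.

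The cytosolic aminoacyl-tRNA synthetases, which supply eEF1A with charged tRNA, went both ways. Of 21 genes compared, 5 were called higher (23.8%) and 3 lower (14.3%), with a median of 0.11. Among all genes compared 15.2% were called higher and 14.7% lower. Neither this list nor the smaller lists that follow it were tested against those shares. Cars rose 2.34-fold (162 to 370 tags), Nars 2.31-fold (418 to 943) and Eprs 2.26-fold (267 to 588). Lars fell to a level 2.02 times lower (586 to 283 tags), Kars to 1.79 times lower (1588 to 867) and Yars to 1.58 times lower (777 to 479). The mTORC1 list had 1 of 10 compared genes called, Tsc2, a subunit of the complex that restrains mTORC1, from 341 to 501 tags. Rps6, which has the most tags of that list, had 7041 and 6576. In the termination list Gspt1 (eRF3) rose from 964 to 1430 tags and Mcts1, a reinitiation factor, from 176 to 258, the other 4 compared not being called. Of 7 genes for poly(A)-binding proteins and partners, Larp1, which binds the leaders of ribosomal protein mRNAs, rose from 562 to 910 tags, and Pabpc1 had 3056 and 2472.

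In the list of other initiation helicases and cofactors, the helicase gene Ddx3x rose from 962 to 1469 tags and Abcf2 fell from 345 to 223, among 7 compared. Among 4 compared mitochondrial translation factors, Tufm rose from 142 to 291 tags and Tsfm from 184 to 298, and Mrrf, the recycling factor, fell from 208 to 129. Dohh, the hydroxylase that completes hypusine on Eif5a, rose from 249 to 402 tags, the sole call among 4 compared genes of hypusine and diphthamide synthesis. Pstk, a kinase of the selenocysteine path, fell from 233 to 103 tags, the sole call among 5, and Trnau1ap had the most tags there, 465 and 446. Of 14 nucleolar genes, Nop58 rose from 250 to 440 tags, and Npm1 had 4272 and 5372.

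Cytosolic ribosomal proteins, selected by their symbols, had 4 of 70 compared genes called higher (5.7%) and 14 lower (20%), with a median log2 ratio of -0.26. Mitochondrial ribosomal proteins had 5 of 63 called higher (7.9%) and 7 lower (11.1%), with a median of 0.05. Among all genes compared 15.2% were called higher and 14.7% lower, and neither list was tested against those shares. The factors, with a median of 0.07, were not tested against either list. The summed level of the cytosolic ribosomal proteins had a log2 ratio of -0.25 (-0.26 to -0.25), beside -0.38 (-0.40 to -0.36) for the 7 Eef genes and -0.07 (-0.09 to -0.05) for the 56 Eif genes.

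**Figure D4:**
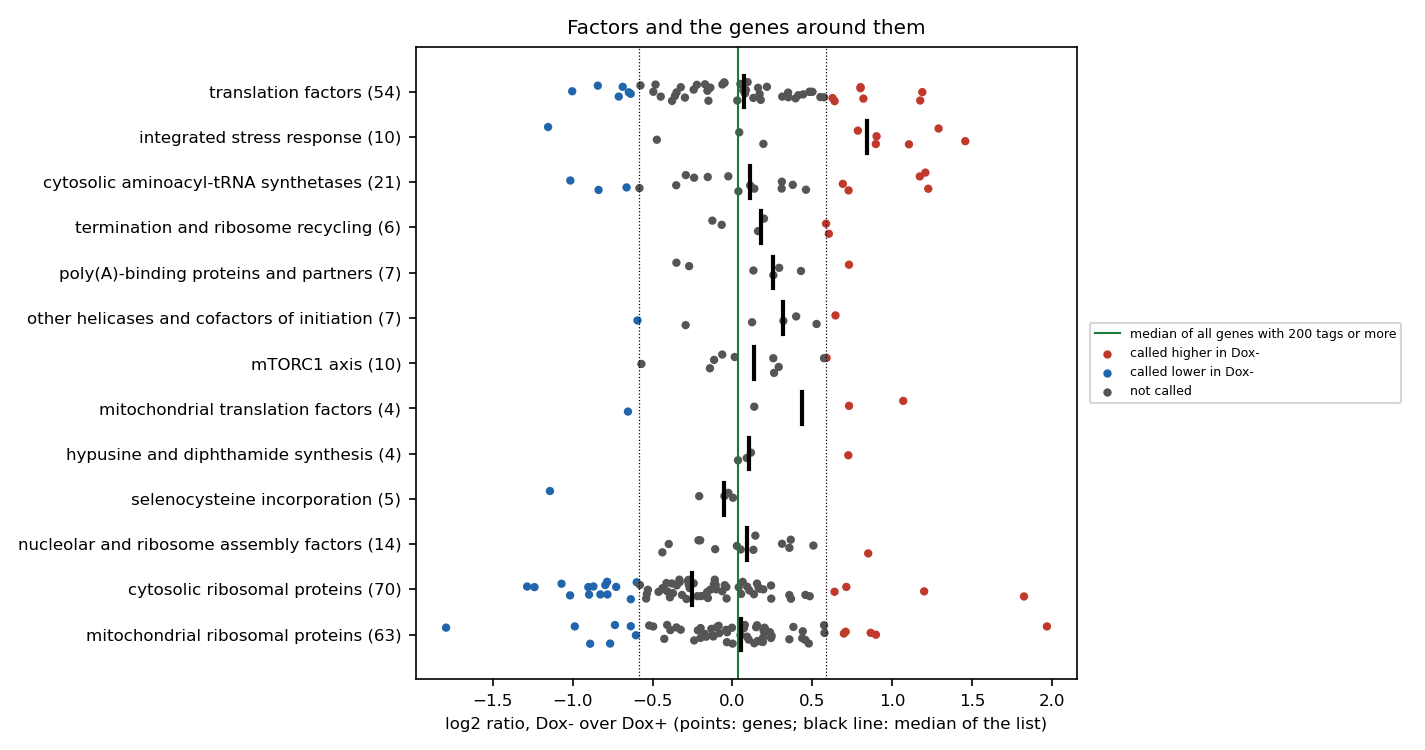
Log2 ratio, Dox- over Dox+, of the compared genes of the factors and of 12 lists, with the number of compared genes in brackets. Each point is a gene, black lines are list medians, the green line is the median of all compared genes, 0.03, and dotted lines mark a 1.5-fold difference. The median of the integrated stress response list, 0.84, lies above the dotted line, and that of the factors, 0.07, near the green line.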

How the data were processed

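Total RNA of 3 pooled uteri per group was profiled by DGE in 1 library per group. The authors removed adaptor-only, low quality and single-copy tags, aligned the others to a tag database of mouse mRNAs (mm9), annotated the unambiguous tags, and deposited a count for each gene. The deposited counts summed to 74.1% of the clean tags in Dox+ and 72.2% in Dox-. These shares are lower than those the paper gives for unambiguously mapped tags, and which mapped tags were left out is not stated. The deposited TPM values are tags per 1000000 clean tags, with 0.01 for a count of 0. The submitters' processing notes name CASAVA, and the aligner and restriction enzyme are not given in the sources used here. The labels mention mRNA fragmentation, which was not resolved, and sense and antisense tags were both searched, with no statement on which the count column holds. Further columns hold the authors' ratios, P-values and FDR and were not used.

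Library totals were the whole numbers at which every TPM equals its count per 1000000 tags within 0.005. Factors were compared by counts with the two-sided Audic-Claverie test, FDR over all 14678 genes. Intervals are Clopper-Pearson intervals of the split of tags between the libraries, or Wald intervals for differences between genes. A count under 3 was set to 3. Named are all called factors, the 3 with the most tags in each role, and in each list the called genes, at most 3 per direction, with the gene of most tags. The factors were set by their symbols, and the lists were written with earlier results of these data known. The calls and intervals were tried on simulated tag counts that held counting error only. No variation between animals or pools was simulated, so this cannot show whether a call is a difference between the groups. Library sizes and assumed variation were tried with edgeR 4.0.16 in R 4.3.3, and all else ran in Python 3.11.15 with numpy 2.4.6, pandas 2.3.3, scipy 1.17.1 and matplotlib 3.10.9.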

Additional observations from a re-analysis of the deposited data

How the results depend on the processing

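The counts of 7 factors called higher and 6 called lower stayed within 1.5 times under other library sizes, other minimum counts, a pseudocount of 1, Fisher's exact test, a log2 limit of 0.5 and an assumed coefficient of variation of 0.1 between pools, where they ranged from 6 to 10 and from 5 to 7. Over all genes the shares called at these settings were 13.2% to 18.8% higher and 13.0% to 17.8% lower, with 18.8% beside the 10 of 54 factors at a log2 limit of 0.5. At a fold of at least 2 there were 2 of 54 factors called higher and 1 lower, beside 4.61% and 5.62% of all genes. With an assumed coefficient of variation of 0.2 or of 0.4 in edgeR's exact test, 0 were called higher and 0 lower, while 147 of all genes were called higher and 174 lower at 0.2. How much pools really vary is unknown here. The median of the factors ranged from 0.03 to 0.11 and kept its sign. Eef2 was called lower with TMM factors (-0.60) and median-ratio factors (-0.61), and Eif2b5 (0.61) and Eif4a3 (0.59) were called higher with the sum of the table's counts as library size. At the log2 limit of 0.5, which the study's methods state, Eef2 was also called lower, and Eif1, Eif2b5 and Eif4a3 were also called higher. No paired analysis was possible because each group has 1 library.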
